A study of Drosophila ananassae with 22 samples.

Results

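The genes described here are those that encode the cytoplasmic ribosomal proteins of *Drosophila ananassae*, followed through embryonic development. They were chosen by identity: 60 *D. melanogaster* gene identifiers of the small and large subunit proteins were listed, and 57 of them had a row among the 8758 genes of the deposited gene table. The identifiers FBgn0010198, FBgn0030136 and FBgn0037686 had no row and were not analysed here. All 57 genes reached 10 RPM (reads scaled to the depth of the sample) in at least 1 collection, as did 7207 of the 8758 genes, and these 7207 genes are the background used throughout. The tables give identifiers without gene names, so the genes are called by their identifiers and were not split by subunit, and no sequence is shown.

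Ribosomal proteins and ribosomal RNA together form the small and the large subunit of the ribosome, and each protein is needed in about the same amount as the others. Their genes are among the most strongly and evenly transcribed of the genome. In *D. melanogaster* their transcripts start at a polypyrimidine initiator, the mother supplies the early embryo with ribosomes and with messenger RNA for their proteins, and flies with a single functional copy of many of these genes show the Minute phenotype of slow development and thin bristles.

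Staged whole embryos of the In(3R)A strain, from which the reference genome was made, were collected in windows of 1 hr, from 0-1 hr to 21-22 hr after egg laying. Each of the 22 collections is 1 sample of RAMPAGE, an assay that sequences the 5′ ends of capped transcripts. The samples got a barcode each when cDNA was made and were then combined into a shared library. RPM counts transcript 5′ ends and needs no division by transcript length. The 7-8 hr collection was excluded by the study and is left out here unless named. As no collection was repeated, tests used the spread around a smooth curve of time, or that within 7 windows of 3 successive collections (0-3, 3-6, 6-10 without 7-8, 10-13, 13-16, 16-19 and 19-22 hr), which holds real change within a window as well as error.

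The 21 collections had between 1211764 and 12595472 reads, with a median of 4522285, so that 1 read was worth 0.0794 to 0.825 RPM. The 57 genes received 49315 to 471981 reads per collection, and no value of theirs rested on fewer than 24 reads. Counting error was therefore small for these genes, while differences between collections that each stand alone were not measured. Levels are shares of a collection's reads. In whole embryos, a lower level can come from fewer cells that express a gene or from less RNA per cell, and these cannot be told apart. A gene's near-identical copies elsewhere in the genome, where it has any, may share its reads.

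Together the 57 genes held a large and fairly even part of the 5′ ends at every hour, which was higher at the end of embryogenesis than at the start. Their summed level lay between 28957 RPM at 1-2 hr and 49654 RPM at 21-22 hr, a 1.71-fold range around a median of 40125 RPM. By window it averaged 32951 ± 3849 RPM at 0-3 hr, 41578 ± 1722 at 3-6 hr, 40170 ± 2086 at 6-10 hr, 38959 ± 3357 at 10-13 hr, 38840 ± 3837 at 13-16 hr, 33458 ± 4794 at 16-19 hr and 44963 ± 4494 at 19-22 hr (SD, n = 3 collections each). The first window and the 16-19 hr window were thus the lowest, and the 3 collections of the last window lay above the 3 of the first.

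The shape of this curve depended on what the reads were set against. The genes listed in the table held at most 86.7% and at least 59.1% of the reads behind the RPM of a collection, with the lower shares late in the series. As a share of the reads of all listed genes, the ribosomal protein genes had 6.89 ± 0.649% at 19-22 hr and 3.84 ± 0.498% at 0-3 hr (SD, n = 3 each), and the dip at 16-19 hr was absent, at 5.41 ± 0.609% against 5.23 ± 0.189% at 13-16 hr. After TMM scaling, which sets each collection to the bulk of its genes, the summed level ranged 2.89-fold, from 20845 to 60269 RPM. On the log2 scale the sum at 19-22 hr over that at 0-3 hr was 0.45 (SD 0.22) on deposited RPM and 1.14 after TMM scaling.

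**Figure D1:**
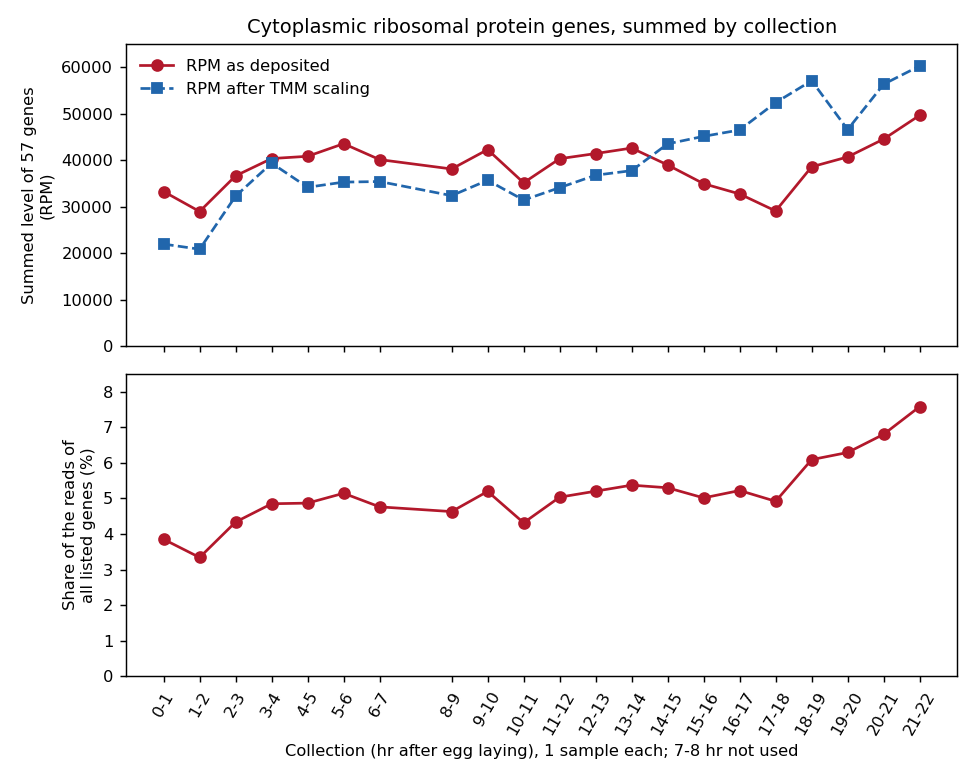
Summed level of the 57 ribosomal protein genes in each of 21 collections (top, RPM, as deposited and after TMM scaling) and their share of the reads of all listed genes (bottom, percent), each point being 1 sample. The deposited sum lies between 28957 and 49654 RPM, whereas the TMM-scaled sum climbs to 60269 RPM at 21-22 hr.

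The proteins are needed in like amounts, yet the 5′ ends of their genes differed 90.3-fold in number. The median RPM over the 21 collections ran from 42.6 for FBgn0003279 to 3850.4 for FBgn0019936, with a middle value of 453.7 RPM, against 19.7 RPM for all 7207 genes. The lowest of the 57 stood at percentile 68.4 of all genes by this measure and the middle one at percentile 96.7. Within a single collection, the SD of log2(RPM + 1) over the 57 genes was between 1.32 and 1.64.

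At the top, FBgn0019936 had a lowest value of 1929 RPM (19-20 hr), a median of 3850.4 and a highest of 5524 RPM (12-13 hr). FBgn0017579 had 1259.6 RPM at its lowest (15-16 hr), 3764 at the median and 5417 RPM at its highest (5-6 hr). FBgn0003942 had 369.5, 2793 and 3719 RPM, with its low at 17-18 hr and its high at 21-22 hr. These genes, with FBgn0010409 (821 RPM at 16-17 hr, median 2652, 4819 RPM at 4-5 hr) and FBgn0010078 (695 RPM at 4-5 hr, median 1431, 2394 RPM at 0-1 hr), carried 36.1% of the summed level on average and 24.0 to 42.9% in single collections. The 5 strongest genes overlapped widely in their values, so their order was not fixed from hour to hour.

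At the bottom, FBgn0003279 ran from 26.3 RPM at 17-18 hr to 106 RPM at 11-12 hr around its median of 42.6. FBgn0011284 had 56.0 to 121 RPM (median 90.8), FBgn0039359 had 33.8 to 157 RPM (median 93.7), FBgn0010408 had 40.2 to 185 RPM (median 105.6), and FBgn0017545 had 77.7 to 170.5 RPM (median 120.1). Neighbours in this order had overlapping ranges, so the order does not hold beyond their spread.

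Most of the genes varied little over the whole of embryogenesis. The ratio of the highest to the lowest RPM was under 5, the limit the study set for housekeeping expression, in 43 of the 57 genes (75.4%), against 12.6% of all 7207 genes. The study applied that limit to single promoters of *D. melanogaster*, whereas here it is applied to whole genes of *D. ananassae*. It was under 3 in 22 of them and had a median of 3.28, against 17.4 over all genes, 1582 of which had no read in at least 1 collection. The class from 2 to 2.5 held 26.3% of the 57 genes and 0.685% of the other genes. That from 2.5 to 3 held 10.5% and 1.55%, and that from 1.5 to 2 held 1.75% and 0.0699%. After TMM scaling 36 of the 57 genes were under 5-fold, a count not made over all genes. The SD of log2(RPM + 1) over the collections had a median of 0.452 in the ribosomal protein genes and 1.01 in all genes. These genes also had more reads than most, and the part of depth in this difference was not tested.

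The steadiest was FBgn0039300, with 969 RPM at its lowest (0-1 hr), 1407 at the median and 1909 RPM at its highest (13-14 hr), a ratio of 1.97. FBgn0014026 followed with a ratio of 2.08 (686.6 to 1429 RPM), then FBgn0032987 with 2.10 (467 to 980.1 RPM), FBgn0028697 with 2.12 (644 to 1364 RPM) and FBgn0011284 with 2.16. None of these reached 5-fold even between its most extreme hours. At the other end, 10 genes had a ratio of at least 10, whereas the median over all genes was 17.4. The class of 80-fold or more, or with no read in a collection, held 32.2% of the other genes and 0% of the 57. The widest were FBgn0086710 with 57.5 (9.67 to 555 RPM), FBgn0016726 with 38.9 (9.47 to 368 RPM), FBgn0036213 with 18.5 (42.4 to 783 RPM), FBgn0002590 with 13.6 (16.5 to 224 RPM) and FBgn0002626 with 12.8 (21.6 to 276 RPM). In all of these but FBgn0002590 the lowest value was one of the abrupt low values described below. The range of FBgn0002590 also rested on 1 low collection, 1-2 hr. Its ratio of highest to second lowest RPM was 4.41, and that of FBgn0086710 was 5.14. With the second lowest value in place of the lowest, an alternative chosen after the values were seen, 50 of the 57 genes were under 5-fold. The share of all genes under 5-fold by that value is not given.

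**Figure D2:**
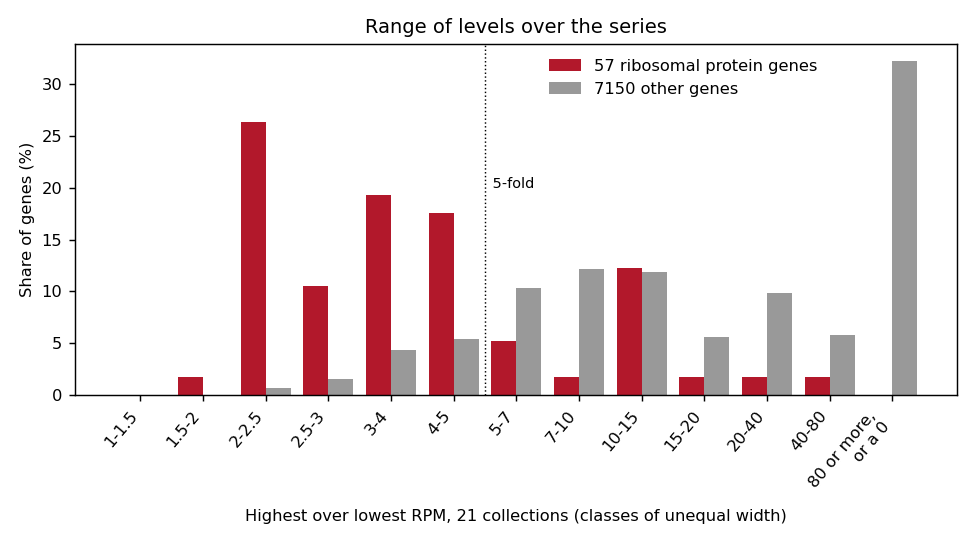
Share of genes (percent) by the ratio of their highest to their lowest RPM over 21 collections, for the 57 ribosomal protein genes and the 7150 other genes at 10 RPM or more, in classes of unequal width; the last class also holds genes with no read in a collection. Of the ribosomal protein genes, 75.4% lie left of the dotted line at 5-fold.

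Whether the genes changed with time was asked with a natural spline of the hour, fitted by limma to log2(RPM + 1) of all 7207 genes. It called 92.9% of all genes at an adjusted p under 0.05, but 12 of the 57 ribosomal protein genes (21.1%). The smallest adjusted p was 9.2e-05 for FBgn0002590, which had 224, 199 and 207 RPM at 19-22 hr, against 57.3, 16.5 and 50.9 RPM at 0-3 hr, a log2 difference of 2.49. Its last window was the highest of all its windows and did not overlap with the first. FBgn0020910 (limma adjusted p = 0.000273) had 154, 184 and 152 RPM at 19-22 hr, against 68.9, 70.0 and 78.3 RPM at 0-3 hr, and FBgn0000100 (adjusted p = 0.00130) had 136, 279 and 330 RPM at 19-22 hr, against 113, 112 and 117 RPM at 0-3 hr. In both, every late value was above every early one.

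FBgn0002593 (limma adjusted p = 0.00167) averaged 1019 ± 125 RPM at 19-22 hr and 358 ± 29.8 RPM at 0-3 hr, and FBgn0015288 (adjusted p = 0.00829) 1125 ± 164 RPM at 19-22 hr and 362 ± 121 RPM at 0-3 hr (SD, n = 3 each). FBgn0004867, FBgn0017545, FBgn0064225, FBgn0034138 and FBgn0010411 were also called, with higher means in the last window than in the first. FBgn0004867 had 218 ± 23.5 RPM at 19-22 hr and 85.9 ± 48.6 RPM at 0-3 hr. FBgn0010411 had 178 ± 24.6 RPM at 19-22 hr and 148 ± 63.2 RPM at 0-3 hr. The values of FBgn0010411 in these windows overlapped, and it was highest between them, at 263 RPM at 13-14 hr. FBgn0024733 and FBgn0010078 were called with nearly level ends, and the call of FBgn0024733 (limma adjusted p = 0.0477) was the only one of the 12 lost after TMM scaling (0.125) and in edgeR (0.106). FBgn0010078 was highest in the first collection, at 2394 RPM, lowest at 4-5 hr, at 695 RPM, and back at 1623 ± 163 RPM in the last window, against 1789 ± 525 RPM in the first.

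This low number of calls rested on the scaling. After TMM scaling the same limma spline called 44 of the 57 genes (77.2%), against 85.4% of all genes, and the quasi-likelihood test of edgeR, run with TMM on recovered reads, called 48 (84.2%), against 86.3%. Of these calls, 11 were shared by all the fits and 7 of the 57 genes were called by none. The genes were thus called far less often than the background on deposited RPM, and nearly as often as the background after TMM scaling.

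Between successive windows few of the genes were called at the adjusted threshold. At 3-6 hr over 0-3 hr, limma called 2 of the 57 genes higher and 1 lower, against 14.7% and 16.1% of all genes. The median log2 difference was 0.33 over the 57 genes and 0.01 over all genes, and it was positive in 48 of the 57. After TMM scaling it was 0.55 over the 57 genes, with 53 positive, and 0.16 over all genes. The share of all genes with a positive difference is not given for the steps. FBgn0002590 rose, with 117, 61.4 and 80.5 RPM at 3-6 hr, against 57.3, 16.5 and 50.9 RPM at 0-3 hr (log2 difference 1.17, SE 0.41, adjusted p = 0.0359, range over 27 alternatives 0.0163 to 0.273). The difference was 0.61 and no longer passed without the 1-2 hr collection, which held the low value of 16.5 RPM, and the call was also lost without the 3-4 or the 5-6 hr collection. FBgn0015521 also rose, with 1026, 1005 and 712 RPM at 3-6 hr, against 463, 459 and 711 RPM at 0-3 hr (log2 difference 0.76, SE 0.28, adjusted p = 0.0440, range 0.0112 to 0.157), a call lost without the 0-1, 1-2, 3-4, 4-5, 8-9, 11-12, 14-15, 16-17, 20-21 or 21-22 hr collection. FBgn0010078 fell to 1168, 695 and 867 RPM at 3-6 hr, against 2394, 1456 and 1517 RPM at 0-3 hr (log2 difference -0.97, SE 0.31, adjusted p = 0.0230, range 0.00781 to 0.127), and this call was lost after TMM scaling, in edgeR and without the 0-1, 4-5 or 5-6 hr collection. Only 1 of the 57 genes was called without the 0-1, 1-2, 3-4, 4-5 or 5-6 hr collection and 5 were called without the 2-3 hr collection. TMM scaling gave 5 higher and 0 lower calls (17.9% and 13.2% of all genes).

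At 6-10 hr over 3-6 hr none of the 57 genes was called by limma or by edgeR, against 11.3% of all genes higher and 4.05% lower in limma, and 2 were higher at an unadjusted limma p under 0.05, against 21.0% of all genes, and 0 lower, against 10.2%. At 10-13 hr over 6-10 hr 1 gene was called lower and 0 higher, against 5.47% and 12.9% of all genes. This was FBgn0039359, which fell to 97.9, 45.0 and 33.8 RPM at 10-13 hr, against 130.3, 112 and 143 RPM at 6-10 hr (log2 difference -1.25, SE 0.40, limma adjusted p = 0.0339, range 0.00635 to 0.180). No value of the later window reached those of the earlier one. The gene was not called by edgeR, with a pseudocount of 0.1 RPM, or without the 6-7, 8-9, 9-10, 11-12 or 12-13 hr collection.

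At 13-16 hr over 10-13 hr limma called 0 of the 57 genes, against 2.43% of all genes higher and 3.89% lower. At an unadjusted limma p under 0.05 it was 3 higher and 2 lower, against 7.78% and 17.0% of all genes, and edgeR called 1 higher, against 0.611% of all genes. At 16-19 hr over 13-16 hr 1 gene was called lower and 0 higher, against 7.91% and 2.25% of all genes. FBgn0015521 fell to 405, 457 and 348 RPM at 16-19 hr, against 956, 803 and 690.2 RPM at 13-16 hr (log2 difference -1.01, SE 0.28, limma adjusted p = 0.0283, range 0.00618 to 0.482). This gene was therefore called in both directions in the series, and the fall was not called after TMM scaling, in edgeR or without the 13-14, 14-15, 17-18 or 18-19 hr collection.

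At 19-22 hr over 16-19 hr none of the 57 genes passed the adjusted threshold in limma or edgeR, against 1.75% of all genes higher and 0.999% lower in limma. On deposited RPM 54 of the 57 differences were positive, with a median log2 of 0.56 against 0.25 over all genes. After TMM scaling 44 were positive, with a median of 0.20 against -0.07 over all genes, and in edgeR 44 were positive, with a median of 0.18. These counts of positive differences have no share of all genes beside them. On deposited RPM 21 genes had an unadjusted limma p under 0.05, all of them higher in the later window, against 14.0% of all genes higher and 3.66% lower at that threshold. After TMM scaling 4 were higher and 1 lower at that threshold, and in edgeR 0 were higher and 1 lower. The shares of all genes at that unadjusted threshold were not set beside these counts, so no comparison with the background is made for these fits. At the adjusted threshold 0.874% of all genes were higher and 2.11% lower after TMM scaling, and 0.0694% and 0.902% in edgeR. The direction of the later steps depended on the scaling. At 13-16 and 16-19 hr the median of the 57 genes was -0.03 and -0.28 on deposited RPM, against -0.30 and -0.44 over all genes, and 0.28 and 0.24 after TMM scaling, against -0.02 and 0.02. After TMM scaling the calls at 16-19 hr were 1 higher and 0 lower (5.47% and 3.14% of all genes), and so were those of edgeR (2.03% and 2.40%). Under both scalings the median difference from the window before was larger in the 57 genes than in all genes at 3-6, 13-16, 16-19 and 19-22 hr. It was smaller at 6-10 hr. At 10-13 hr the medians were nearly equal, at -0.049 against -0.055 on deposited RPM and -0.021 against -0.028 after TMM scaling.

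Set end against end, nearly all the genes had a larger share of the 5′ ends in the last window than in the first. The mean log2(RPM + 1) at 19-22 hr minus that at 0-3 hr had a median of 0.49 over the 57 genes, against -0.68 over all genes. It was positive in 53 of the 57 genes, against 37.8% of all genes. The negative ones were FBgn0037351 (594 ± 291 RPM at 19-22 hr and 735 ± 159 RPM at 0-3 hr, SD, n = 3 each), FBgn0017579 (2671 ± 770 RPM at 19-22 hr and 3411 ± 369 RPM at 0-3 hr), FBgn0010078 and FBgn0010409 (2040 ± 711 RPM at 19-22 hr and 2132 ± 452 RPM at 0-3 hr), and in each of them the windows overlapped. Every late value was above every early one in 30 of the 57 genes (52.6%), against 26.6% of all genes, and below it in none, against 45.8% of all genes. After TMM scaling the median was 1.18, against -0.07 over all genes, and the difference was positive in all 57 genes, against 48.1% of all genes. Every late value was then above every early one in 49 of the 57 genes, against 33.6% of all genes, and below it in none, against 33.4%. These are descriptions of windows that enter the steps above, with no test of their own.

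**Figure D3:**
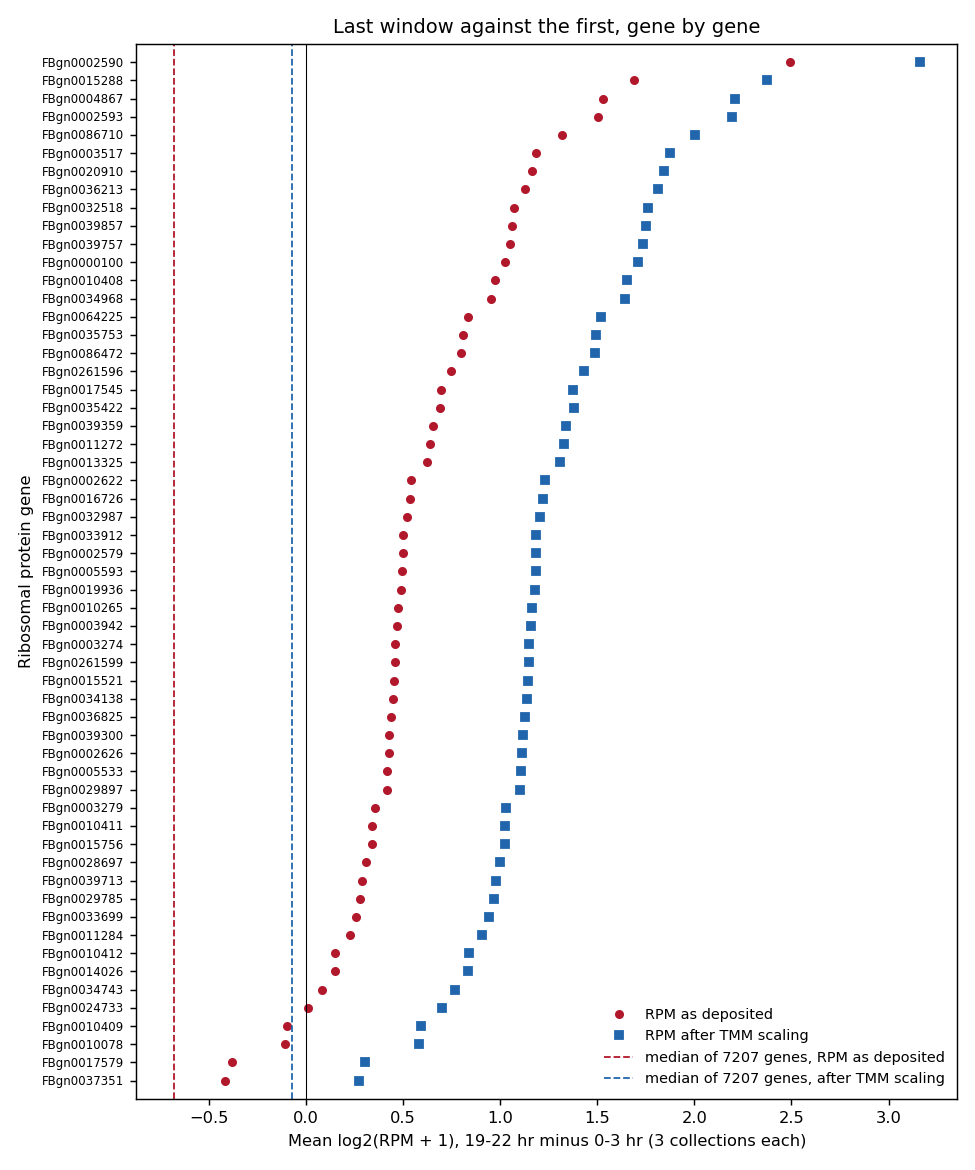
Mean log2(RPM + 1) of the 19-22 hr window minus that of the 0-3 hr window (3 collections each) for each of the 57 ribosomal protein genes, as deposited and after TMM scaling, with dashed lines at the median of 7207 genes. FBgn0002590 stands at the top with 2.49. As deposited 53 genes are above 0 (37.8% of all genes), and after TMM scaling all 57 are (48.1% of all genes).

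The highest collection of a gene fell in the last window for 33 of the 57 genes (57.9%), against 12.2% of all genes, and in 22 of them it was 21-22 hr. The first window held the highest value of 1 gene (37.0% of all genes), the 3-6 hr window that of 7 (18.5%), the 6-10 hr window of 3 (9.34%), the 10-13 hr window of 9 (10.7%), the 13-16 hr window of 4 (7.69%) and the 16-19 hr window of 0 (4.52%). The 16-19 hr window held the lowest value of 17 genes, more than any other window. The same count was not made over all genes. On deposited RPM the median log2 difference of 16-19 hr over 13-16 hr was -0.44 over all genes and -0.28 over the 57 genes. Of the 24 genes that were highest in another window, the 5 with the most reads each had a different time: FBgn0019936 at 12-13 hr, FBgn0017579 at 5-6 hr, FBgn0010409 at 4-5 hr, FBgn0010078 at 0-1 hr and FBgn0039300 at 13-14 hr. Of the 5 strongest genes, FBgn0003942 alone was highest in the last window.

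How alike the courses of the genes were depended on the scaling. Pearson's r of log2(RPM + 1) between a gene and the median profile of the other ribosomal protein genes, over 21 collections, had a median of 0.456 and ran from -0.227 to 0.777 (FBgn0086472). After TMM scaling the median r was 0.695. On deposited RPM r was over 0.5 in 24 genes (42.1%), against 3.59% of the 7150 other genes. Neighbouring hours and the depth of each collection are shared by all genes, so r is given as a description. The least alike were FBgn0029785 (r = -0.227), FBgn0017579 (-0.110), FBgn0037351 (-0.032), FBgn0016726 (0.073) and FBgn0010078 (0.086). These included a gene with 2 abrupt low values (FBgn0029785), a gene with 1 (FBgn0016726) and both genes with the lowest ratio of the last window to the first.

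**Figure D4:**
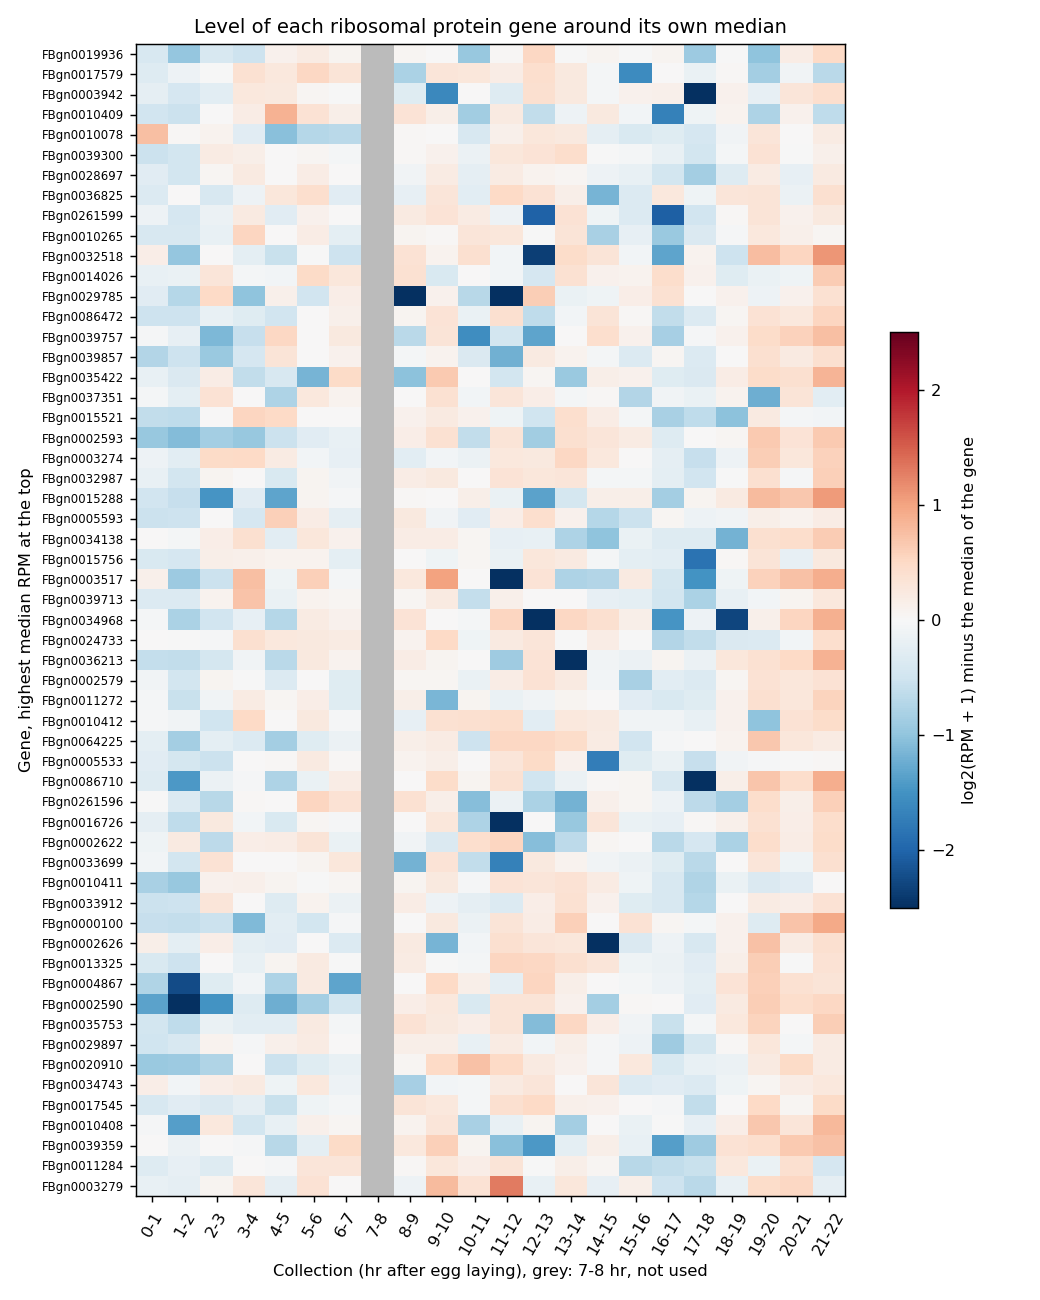
Level of each of the 57 ribosomal protein genes (rows, by median RPM) in each collection (columns, hr after egg laying) as log2(RPM + 1) minus the gene's own median, with colours ending at 2.5 in each direction. Most cells are pale; the darkest blue cells are isolated low values, such as FBgn0016726 at 11-12 hr and FBgn0086710 at 17-18 hr, and the last 3 columns are mostly red.

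Against this even background, some of the genes had abrupt low values in single collections. A drop was counted where a gene lay more than 4-fold below both neighbouring collections and these had at least 50 RPM, a rule set after the values were seen. There were 11 drops in 9 of the 57 genes, which is 1.05% of 1050 values, against 0.528% of 34500 values of the other genes. The share was 0.490% of 30431 values in the 2212 other genes with a median RPM between 42.6 and 3850.4, the range of the 57 genes. Levels within this range were not matched, so the part of level in the difference was not tested. The opposite, a jump to at least 50 RPM and at least 4-fold above both neighbours, was not seen in the 57 genes. It occurred 31 times in the 7150 other genes. Jumps were thus rare in both, and their absence in 57 genes does not set these apart.

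The deepest was that of FBgn0086710, which had 9.67 RPM (32 reads) at 17-18 hr, between 223 RPM at 16-17 hr and 328 RPM at 18-19 hr, 23.1-fold under the lower neighbour. FBgn0016726 had 9.47 RPM (24 reads) at 11-12 hr, between 159 and 273 RPM, a 16.8-fold gap. FBgn0036213 had 42.4 RPM (304 reads) at 13-14 hr, between 543 and 405 RPM. All of these lay outside counting error, since the neighbouring levels would have given many times more reads.

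FBgn0029785 dropped at 8-9 hr, to 110.1 RPM between 1019 and 988 RPM, and again at 11-12 hr, to 127 RPM between 563 and 1399 RPM. FBgn0034968 dropped at 12-13 hr, to 78.3 RPM between 661 and 651 RPM, and at 18-19 hr, to 92.0 RPM between 417 and 493 RPM. FBgn0003942, the third strongest gene, dropped at 17-18 hr, to 369.5 RPM (1223 reads) between 3040 and 3005 RPM. The others were FBgn0003517 at 11-12 hr (76.9 RPM between 483 and 612), FBgn0032518 at 12-13 hr (186 RPM between 904 and 1298) and FBgn0002626 at 14-15 hr (21.6 RPM between 202 and 129). By the next collection each gene was back at 129 RPM or more, and even at 11-12 hr, the hour with the most drops, 3 of 55 genes dropped.

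The 11 drops fell in 7 collections, 3 of them at 11-12 hr and 2 each at 12-13 and 17-18 hr, and the collections with a drop ranged from 1391455 to 7987679 reads. In other genes, drops were most frequent at 12-13 hr (33 of 2080 values, 1.59%) and 2-3 hr (28 of 1850 values, 1.51%), where the ribosomal protein genes had 2 and 0. All 11 drops were also present in the strongest start site cluster of their gene taken alone. That cluster held 92.4% of the reads of FBgn0003942 and at least 99.3% in the other genes with a drop. It is thus nearly the same measure and gives no separate support. In FBgn0003942 the second cluster, 1453 bp from the first, was low in the same collection, at 21.7 RPM at 17-18 hr between 251 and 192 RPM. All 9 genes with a drop were among the 14 with at least 5-fold variation. The drop rule nearly fixes this in advance, since it asks for a value more than 4-fold below both neighbours. No cause of these drops was tested.

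**Figure D5:**
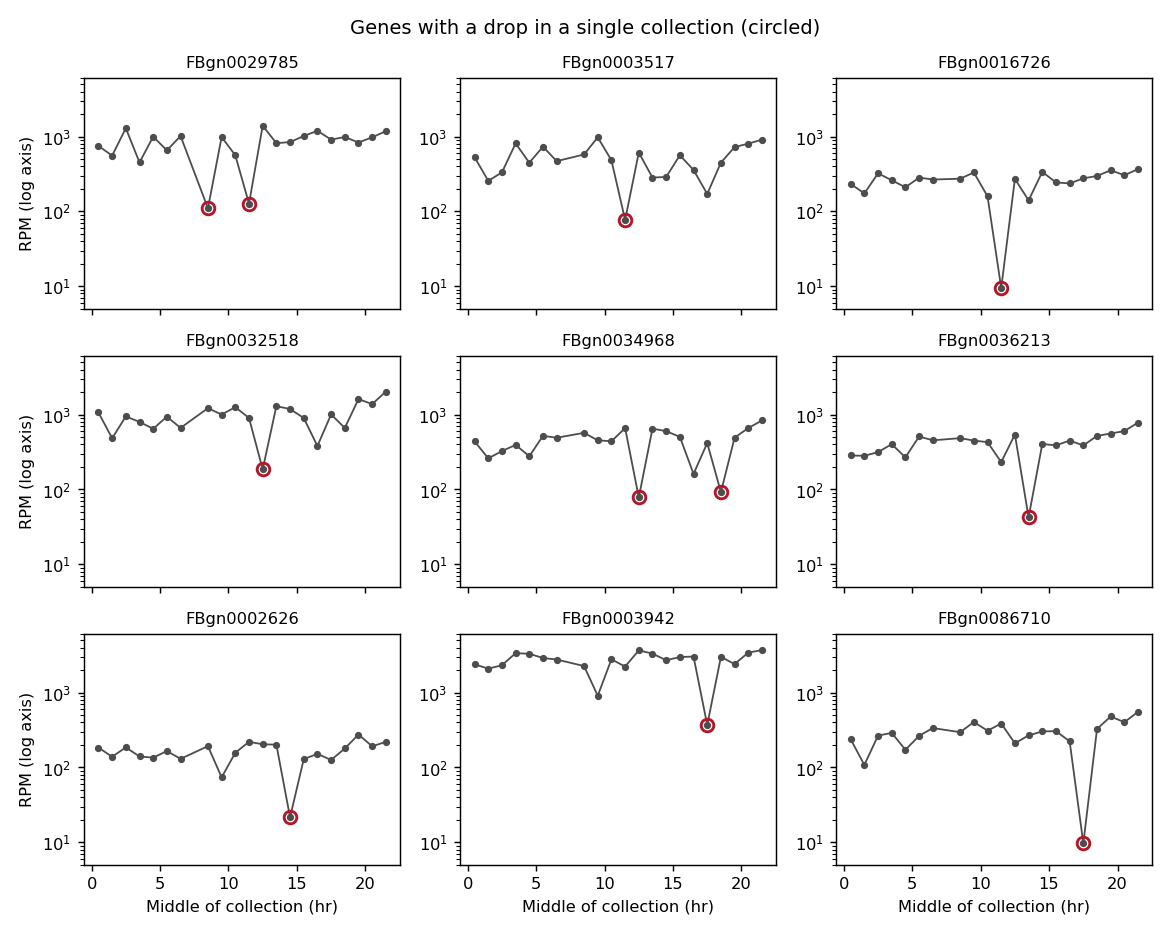
RPM (log axis) of the 9 ribosomal protein genes with a drop against the middle of each collection (hr after egg laying), 1 sample per point, with the 11 drops circled. The lowest circles are FBgn0016726, at 9.47 RPM, and FBgn0086710, at 9.67 RPM, and the points on either side of each circle are more than 4-fold higher.

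The positions where transcripts start were taken from the transcription start site clusters (TSCs) of the deposited list. A gene was tied to its TSCs where the reads of its row equalled the summed reads of the TSCs of a *D. ananassae* gene in all 22 collections, which held for 49 of the 57 genes and for 81.3% of all genes. FBgn0005593, FBgn0011284, FBgn0013325, FBgn0003279, FBgn0010409, FBgn0011272, FBgn0039359 and FBgn0039300 were not tied. The 49 genes lay on 13 scaffolds, 9 of them on scaffold_13266 and 8 each on scaffold_13337 and scaffold_13340, with 24 on the plus and 25 on the minus strand. They had 96 TSCs, from 1 in 19 genes (38.8%, against 58.3% of the other tied genes) to 6 in FBgn0064225.

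In most of the genes a single TSC nonetheless gave nearly all reads. The strongest TSC held a median of 99.9% of the reads and at least 99% in 33 of the 49 genes (67.3%), against 66.9% of the other tied genes. That of the strongest gene, FBgn0019936, was its sole TSC, 127 bp wide at positions 7914546 to 7914672 on the plus strand of scaffold_13340, with 361361 reads. That of FBgn0017579 lay at positions 8045692 to 8045875 on the minus strand of scaffold_13337, was 184 bp wide and held 393155 reads, 99.8% of the gene's.

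These TSCs were wide. The strongest TSC had a median width of 186 bp (interquartile range 138 to 292, whole range 68 to 487), against 94 bp (67 to 127) in the other genes and 126 bp (100 to 171) in 1382 other genes within the same range of reads. Only 5 of the 49 were narrower than 126 bp. Even against these, the ribosomal protein genes had more reads in the strongest TSC, with a median of 46175 against 14153, and the part of reads in the difference of width was not tested. The narrowest was FBgn0004867 (68 bp, positions 5501496 to 5501563 on the plus strand of scaffold_12916) and the widest FBgn0029785 (487 bp, positions 3242186 to 3242672 on the plus strand of scaffold_13117).

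In 4 genes the strongest TSC held less than 90% of the reads: FBgn0020910 (48.1%), FBgn0002622 (68.8%), FBgn0002579 (81.4%) and FBgn0028697 (88.6%). The changes of share in these genes were chosen for description after the values were seen. In FBgn0020910 the main TSC, at positions 12087268 to 12087532 on the minus strand of scaffold_13340, gave 39.6 ± 2.14% of the gene's reads at 19-22 hr and 55.3 ± 2.54% at 0-3 hr, whereas the second one, 2388 bp upstream at positions 12089656 to 12089747, gave 37.9 ± 2.32% at 19-22 hr and 21.2 ± 5.20% at 0-3 hr (SD, n = 3 collections each, 187 to 579 reads per collection). Neither share overlapped between these windows, and the windows between them did not form a steady course, the second TSC having 30.8 ± 2.89% at 6-10 hr and 22.0 ± 5.74% at 10-13 hr. In FBgn0002622, whose second TSC lay 741 bp downstream, that TSC held 26.6 ± 4.31% at 19-22 hr and 24.3 ± 3.65% at 0-3 hr, a difference within the spread of the collections. In FBgn0002579 the second TSC held 19.3 ± 1.74% at 19-22 hr and 16.4 ± 2.39% at 0-3 hr, with overlapping values. In FBgn0028697 it held 14.4 ± 0.667% at 19-22 hr and 10.5 ± 1.08% at 0-3 hr, without overlap, on 1476 to 8047 reads per collection.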

How the data were processed

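RAMPAGE samples of 22 hourly collections were used, 1 per collection, barcoded and then combined into a shared library by the authors, with groups taken from the stage labels. STAR was the aligner of the authors, who called TSCs over all collections together, attributed them to genes, and deposited gene and TSC tables in RPM. They also deposited a TSC list, whose positions were used and whose count column was not. A deposited score, the Z-score of each gene after smoothing by the authors, was not used. Dividing by the value of 1 read gave whole reads for 100% of the RPM values (within 0.1 read). Genes with a highest value of at least 10 RPM were tested.

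limma 3.58.1 was fitted to log2(RPM + 1) of all 7207 genes, once with a natural spline of the hour (4 degrees of freedom) and once with 7 windows and 6 successive steps, with Benjamini-Hochberg adjustment at 0.05 over all genes. edgeR 4.0.16 (quasi-likelihood, TMM) on the recovered reads was an alternative, as were other pseudocounts, filters, TMM scaling, 3 degrees of freedom and each collection left out. The spread within a window is between successive hours and not between replicate cultures. Fits and descriptions were tested on simulated data. The members, lists and tests were chosen with earlier results of these data known. Named genes were the 5 highest and lowest in level and in range, the called genes of each step, the 5 least alike, and the 5 strongest with their highest value outside the most common window. The drops, the genes named for their drops or TSC shares, and the alternatives for drops and for the lowest value were chosen after seeing the data. Translation factors, mitochondrial ribosomal proteins and rRNA processing genes were not analysed here, since no table used here pairs the identifiers with gene names. The analyses used Python 3.11.15, pandas 2.3.3 and R 4.3.3.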

Additional observations from a re-analysis of the deposited data

Results flagged for a closer look

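The 7-8 hr collection, which the study excluded and the comparisons above did not use, had 24 reads in 11 of the 57 ribosomal protein genes. This was flagged because the signal was above the 3 reads that a count of 0 allows. The 24 reads were 5.29% of the 454 reads of this collection in listed genes (95% Wilson interval 3.58 to 7.75%, counting error only). The same share was 4.76% at 6-7 hr and 4.63% at 8-9 hr, both within that interval. The interval also holds 3.85% at 0-1 hr and 7.58% at 21-22 hr, so it cannot tell the neighbouring hours from distant ones.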

How the results depend on the processing

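No called gene changed sign under any alternative. The call at 16-19 hr over 13-16 hr was 1 gene lower in limma, whereas TMM scaling and edgeR each called 1 higher and 0 lower, and the medians of the 57 genes at 13-16 and 16-19 hr changed sign after TMM scaling, as given above. The count of ribosomal protein genes called by the limma spline was 12, and 44 after TMM scaling and 48 by edgeR, with 9 to 14 when a collection was left out. At 3-6 hr over 0-3 hr 3 genes were called, 5 after TMM scaling, and 1 to 5 with a collection left out. At 6-10 hr over 3-6 hr the count was 0 throughout. At 10-13 hr over 6-10 hr 1 was called, 0 with a pseudocount of 0.1 RPM, 3 with 10 RPM, 0 by edgeR, and 0 to 2 with a collection left out (0 without 6-7 or 9-10 hr, 2 without 2-3, 10-11, 11-12 or 13-14 hr). At 13-16 hr over 10-13 hr 0 were called, 1 each with a pseudocount of 10 RPM, after TMM scaling and by edgeR, and 0 to 3 with a collection left out (3 without 13-14 hr). At 16-19 hr over 13-16 hr 1 was called, 2 with a pseudocount of 10 RPM, and 0 to 2 with a collection left out (0 without 13-14, 14-15 or 18-19 hr). At 19-22 hr over 16-19 hr 0 were called, 3 with a pseudocount of 10 RPM, 1 each without a filter and with a filter at 25 RPM, and 0 to 2 with a collection left out (2 without 18-19 hr). The causes were not tested.

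The log2 of the summed level, 0.45, was 1.14 after TMM scaling and 0.36 to 0.53 with a collection left out. The median likeness of 0.456 was 0.695 after TMM scaling and 0.397 to 0.487 with a collection left out. The number under 5-fold, 43, was 36 after TMM scaling and 43 to 45 with a collection left out, 56 with means of 2 successive collections and 45 without the 11-14 hr collections. The 11 drops became 40 at more than 2-fold below both neighbours, or 3.81% of values. This compares with 2.25% in other genes within the same range of median RPM. At more than 8-fold they became 6 (0.571%, against 0.0887%). The median TSC width of 186 bp was 142 bp over TSCs of at least 100 reads and 130.5 bp over all TSCs. With a collection left out, the log2 differences of the called genes ranged from 0.61 to 1.48 (FBgn0002590) and 0.65 to 0.97 (FBgn0015521) and from -1.16 to -0.74 (FBgn0010078) at 3-6 hr, from -1.69 to -0.93 (FBgn0039359) at 10-13 hr and from -1.13 to -0.89 (FBgn0015521) at 16-19 hr. No paired analysis was possible because every collection has a single sample.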
